A study of Homo sapiens with 6 samples.

Results

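The small nuclear and polymerase III RNA genes are short noncoding genes of the splicing, RNA processing and vault machineries. They were taken by symbol: a gene was a member if its symbol starts with RNU, RN7S, RNY or VTRNA, or is RPPH1, RMRP or RN5S. This gave 23 of the 18417 genes that have at least 1 row (a set of probes for 1 transcript) under their own symbol alone, and each was read from its row with the highest mean over the 6 arrays. By the polymerase that makes them, 11 members are products of RNA polymerase II and 7 of RNA polymerase III. A further 3 are pseudogenes and 2 are RNU105 genes, which RefSeq lists as small nucleolar RNAs. No U1 gene and no functional U6, 7SL or 7SK gene had a row under its own symbol alone. Symbols of the rule also stood on 11 rows that name several genes, 9 of them with a U1 gene, and those rows were not used here. No row carried RN5S as its single symbol.

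Total RNA came from RD18, an established line of embryonal rhabdomyosarcoma, a tumour with features of immature skeletal muscle, and was hybridised to Affymetrix Human Gene ST arrays. The derivative NpBI-22, called miR-22 cells below, makes the microRNA miR-22 when given doxycycline; the series text calls its replicates biological, and 2 had received doxycycline (1 µg/ml) over 6 days (induced) while 2 had not (non-induced). The derivative NpBI-206AS, an additional control, had 1 array without and 1 with the same treatment, always given in that order below, and the labels do not state what its construct expresses. Neither do they say whether a derivative is 1 clone or a pool. Values are log2 expression, and the lower quartile of the arrays lay between 3.92 and 4.01; levels under it may be background. The number of arrays limits the precision. The muscle markers MYOD1, MYOG, DES, CHRNA1, CHRND and PAX7 read 6.78 to 11.79, and DES fell with induction (log2 change -1.07, SE 0.17, limma adjusted p = 0.038), while MYF5 stood at 3.88 to 3.96, near the lower quartile, and MYF6 at 4.21 to 4.94 (log2 difference 0.52, SE 0.157, adjusted p = 0.13). Of the 11 blood, endothelial and epithelial markers measured, none read above 6.45, the level of KRT14. Both induced miR-22 arrays carry the array code prefix R715, which no other array has; non-induced replicate 1 has R509 and the other 3 arrays have R587. A batch effect tied to the prefix and the effect of induction cannot be told apart.

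Small nuclear RNAs form the core of the spliceosome: U2, U4 and U5 act with U1 and U6 on most introns, and U11, U12, U4atac and U6atac serve the rare introns of the minor class. Polymerase II makes all of these except U6 and U6atac, from promoters that bind the complex SNAPc. Polymerase III uses a related promoter with a TATA box for U6, U6atac, the RNA of ribonuclease P (RPPH1), the RNA of ribonuclease MRP (RMRP) and the Y RNAs, and elements inside the gene for vault RNAs. None of these mature RNAs carries a poly(A) tail.

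In miR-22 cells, most polymerase II snRNAs and both ribonuclease RNAs were higher with doxycycline, whereas the Y RNA, the vault RNAs and U6atac did not pass the test. Of the 23 members, 9 rose and 1 fell in limma, fitted on all rows with Benjamini-Hochberg adjustment and a threshold of 0.05. Of all rows, 1.59% rose and 2.01% fell (531 and 669 rows; 718 and 574 with each array centred on its median). Among polymerase II genes 7 of 11 rose and none fell, with a median log2 difference of 1.76 and a range from 0.18 to 2.84. Both counts of rises, 9 and 7, include RNU5F-1, which passed the test with every value below the lower quartile. Among polymerase III genes 2 of 7 rose and none fell, with a median of 0.48 and a range from -1.06 to 2.54. The median over all genes was 0.01. The cultures were read whole, so more RNA per cell and more cells of a high-expressing kind cannot be told apart. With any 1 miR-22 array left out limma called 0 members and 0 of all 33297 rows, so these fits say nothing on the members; 12 to 14 members had an unadjusted p under 0.05 there. With all arrays 13 members did, and 21.6% of rows. Without the dimmest 50 percent of rows, which leaves 6 polymerase II and 3 polymerase III genes, the medians were 1.75 and 1.50. That filter used the mean over all 6 arrays, the induced ones included, and the 1.50 is the value of RMRP alone. Whether the gap between the classes depends on dim genes was not tested. The polymerase III median moved between 0.127 without induced replicate 1 and 0.828 without induced replicate 2.

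**Figure D1:**
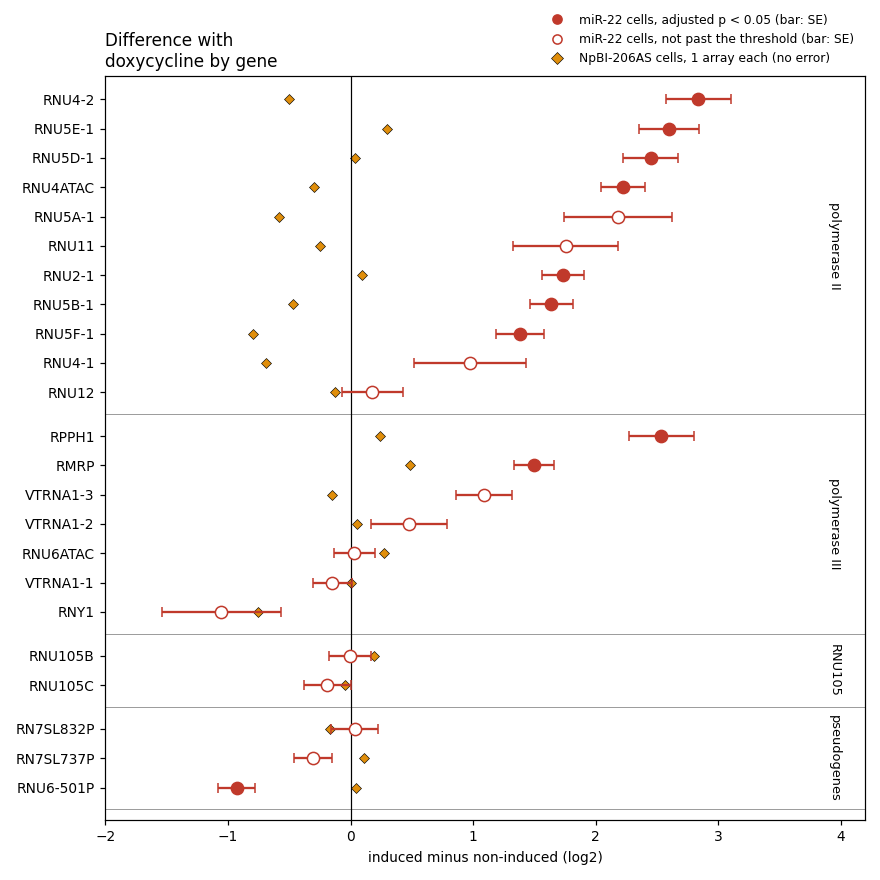
Log2 difference, induced minus non-induced, for each of the 23 genes by polymerase (x axis); circles with SE bars are miR-22 cells (2 arrays per group), filled where the adjusted p was under 0.05, and diamonds are the single pair of NpBI-206AS arrays. The polymerase II genes run from 0.18 to 2.84 in miR-22 cells, while no diamond reaches 1 in either direction.

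U2 pairs with the branch point of the intron. RNU2-1 read 11.03 and 10.79 on the induced miR-22 arrays, 9.29 and 9.06 on the non-induced ones, and 8.95 and 9.04 in NpBI-206AS cells. Both induced miR-22 arrays stood apart from the other 4, which lay within 0.4 of one another. RNU2-1 rose 3.33-fold (log2 change 1.73, SE 0.175, adjusted p = 0.019). The gene has 11 rows with only 3 distinct sets of values, and their differences ran from 1.73 to 1.95. Rows of this gene are therefore not separate measurements.

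U4 holds U6 inactive until the spliceosome is assembled, and of its gene pair RNU4-2 passed the test and RNU4-1 did not; the difference between them was not tested. RNU4-2 read 5.75 and 6.39 on the induced miR-22 arrays, 3.05 and 3.42 on the non-induced ones, and 4.12 and 3.63 in NpBI-206AS cells. It had the largest rise of the members, 7.15-fold (log2 change 2.84, SE 0.265, adjusted p = 0.019), but its non-induced levels lay below the lower quartile, so the fold may be a minimum. RNU4-1 read 7.21 and 7.29 in induced cells, 7.0 and 5.55 in the non-induced replicates, and 5.88 and 5.19 in NpBI-206AS cells. Non-induced replicate 1 of RNU4-1 thus lay 0.21 below the lower induced array while replicate 2 lay with the NpBI-206AS arrays. The difference of 0.98 for RNU4-1 did not pass (SE 0.456, adjusted p = 0.3) and was 1.7 without non-induced replicate 1 and 0.25 without replicate 2.

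U5 aligns the exon ends for joining, and 4 of its 5 genes passed the test, 1 of them, RNU5F-1, with every value below the lower quartile. RNU5E-1 read 8.96 and 8.97 on the induced miR-22 arrays, 6.70 and 6.04 on the non-induced ones, and 6.27 and 6.56 in NpBI-206AS cells. RNU5D-1 read 7.81 and 8.09 on the induced miR-22 arrays, 5.25 and 5.75 on the non-induced ones, and 5.76 and 5.80 in NpBI-206AS cells. In both genes the induced miR-22 arrays lay at least 2 log2 units above every other array. RNU5E-1 rose 6.05-fold (log2 change 2.60, SE 0.245) and RNU5D-1 5.46-fold (2.45, SE 0.226), both with a limma adjusted p of 0.019.

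The other U5 genes were dim. RNU5B-1 read 4.75 and 5.08 on the induced miR-22 arrays, 3.25 and 3.30 on the non-induced ones, and 3.76 and 3.29 in NpBI-206AS cells. RNU5F-1 read 3.10 and 3.53 on the induced miR-22 arrays, 2.01 and 1.85 on the non-induced ones, and 2.62 and 1.82 in NpBI-206AS cells. All 6 values of RNU5F-1 lay below the lower quartile, as did the 4 control values of RNU5B-1, yet the induced miR-22 arrays were above all others in both. RNU5B-1 rose (log2 change 1.64, SE 0.174, adjusted p = 0.021), by a size that may be a minimum. RNU5F-1 passed the test (log2 difference 1.38, SE 0.198, adjusted p = 0.032), but no fold is given because none of its levels is shown to exceed background. RNU5A-1 read 4.03 and 5.39 on the induced miR-22 arrays, 2.68 and 2.38 on the non-induced ones, and 2.81 and 2.23 in NpBI-206AS cells. Its induced replicates differed by 1.36 between themselves, and the difference of 2.18 did not pass (SE 0.44, adjusted p = 0.061). RNU5A-1 and RNU5B-1 neighbour each other in the genome, as do RNU5D-1 and RNU5F-1. Whether probes of 1 copy also read its near-identical copies was not assessed.

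The minor spliceosome gave 1 rise among 4 members. RNU4ATAC, the U4 counterpart, read 7.05 and 6.76 on the induced miR-22 arrays, 4.58 and 4.79 on the non-induced ones, and 4.83 and 4.53 in NpBI-206AS cells. The 4 control values lay within 0.3 of each other, and RNU4ATAC rose 4.67-fold (log2 change 2.22, SE 0.18, adjusted p = 0.015). RNU6ATAC, the U6 counterpart and the member of this group made by polymerase III, read 5.90 and 5.91 on the induced miR-22 arrays, 6.02 and 5.73 on the non-induced ones, and 5.40 and 5.68 in NpBI-206AS cells. The groups overlapped, with a difference of 0.03 (SE 0.169, adjusted p = 0.94) on this row and 0.21 on the gene's other row.

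RNU11, which recognises the start of minor introns, read 8.16 and 8.24 in induced miR-22 cells, 7.12 and 5.77 in the non-induced replicates, and 6.18 and 5.93 in NpBI-206AS cells. Its highest arrays were the induced ones, but non-induced replicate 1 lay 1.35 above replicate 2. The difference of 1.76 did not pass (SE 0.429, adjusted p = 0.088); it was 2.43 without non-induced replicate 1 and 1.08 without replicate 2. RNU12, which pairs with the branch point of those introns, read 6.15 and 5.91 on the induced miR-22 arrays, 6.17 and 5.53 on the non-induced ones, and 5.45 and 5.32 in NpBI-206AS cells. Its groups overlapped (difference 0.18, SE 0.25, adjusted p = 0.75), and without non-induced replicate 2 the sign turned to -0.142.

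Ribonuclease P cuts the leader from precursor transfer RNAs, and ribonuclease MRP cleaves precursor ribosomal RNA. RPPH1 read 10.73 and 10.50 on the induced miR-22 arrays, 8.43 and 7.72 on the non-induced ones, and 8.02 and 8.26 in NpBI-206AS cells. RMRP read 10.91 and 10.64 on the induced miR-22 arrays, 9.28 on both non-induced arrays, and 9.42 and 9.90 in NpBI-206AS cells. Both genes were highest on the induced miR-22 arrays, and for RMRP the induced NpBI-206AS array came next. RPPH1 rose 5.80-fold (log2 change 2.54, SE 0.264, adjusted p = 0.02) and RMRP 2.82-fold (log2 change 1.50, SE 0.165, adjusted p = 0.022).

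The remaining polymerase III genes did not pass. RNY1, whose RNA binds the Ro protein RO60, read 4.52 and 3.06 on the induced miR-22 arrays, 4.58 and 5.11 on the non-induced ones, and 5.87 and 5.11 in NpBI-206AS cells. Both induced miR-22 arrays were the lowest but 1.46 apart (difference -1.06, SE 0.486, adjusted p = 0.29). Vault RNAs sit in the vault particle and are encoded side by side in the genome. VTRNA1-3 read 5.54 and 4.96 on the induced miR-22 arrays, 4.21 and 4.11 on the non-induced ones, and 4.24 and 4.08 in NpBI-206AS cells. Its groups did not overlap, with a difference of 1.09 (SE 0.227, adjusted p = 0.065). VTRNA1-2 read 4.58 and 3.88 in induced cells against 3.44 to 4.06 on the 4 control arrays, with overlapping groups and a difference of 0.48 (SE 0.314, adjusted p = 0.46). VTRNA1-1 lay between 2.09 and 2.39 on all arrays, below the lower quartile throughout.

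**Figure D2:**
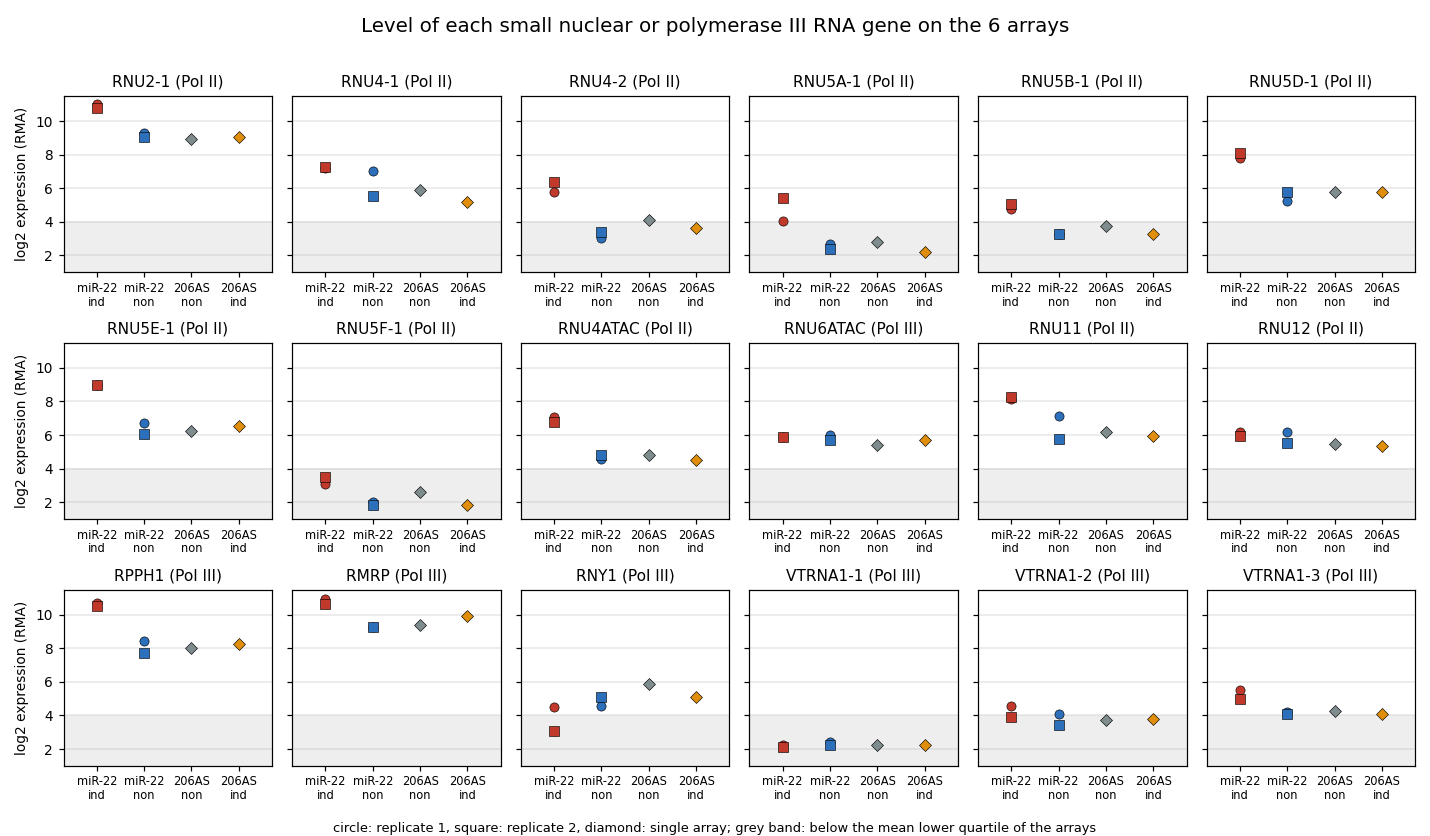
Log2 expression (y axis) of the 18 polymerase II and polymerase III genes on the 6 arrays, 1 panel per gene and 1 column of points per group; circles are replicate 1, squares replicate 2, diamonds single arrays, and the grey band lies below the mean lower quartile. In RNU2-1, RNU5D-1, RNU5E-1, RNU4ATAC and RPPH1 the red induced miR-22 points stand above every other array, while in RNU4-1 and RNU11 non-induced replicate 1 lies between.

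The member that fell was a pseudogene of U6. RNU6-501P read 5.28 and 5.22 on the induced miR-22 arrays, 6.10 and 6.26 on the non-induced ones, and 6.25 and 6.30 in NpBI-206AS cells. Its induced miR-22 arrays were the lowest, and it fell (log2 change -0.93, SE 0.153, adjusted p = 0.041). On the gene's other, dimmer row the induced arrays read 3.53 and 3.54, and non-induced replicate 1, at 3.60, lay with them rather than with replicate 2 at 4.86. With both rows averaged the difference of -0.81 did not pass (adjusted p = 0.15). The annotation ties this row and those of RN7SL737P and RN7SL832P to accessions other than RefSeq transcripts. RN7SL737P differed by -0.31 (adjusted p = 0.32) and RN7SL832P by 0.03 (adjusted p = 0.95). RNU105B and RNU105C differed by 0.00 and -0.19 (adjusted p = 1 and 0.64).

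A second comparison set the induced miR-22 arrays against all 4 control arrays. Its control group pools both lines and both doxycycline states, and the test treats these arrays as replicates. The prefix R715 again marks only the induced miR-22 arrays. It called 12 members higher and 1 lower in limma, where 6.32% and 7.43% of all rows were called. All 9 genes that rose in the first comparison were among the 12, and RNU11 (1.95, SE 0.345, adjusted p = 0.011), RNU5A-1 (2.19, SE 0.351, adjusted p = 0.008) and VTRNA1-3 (1.09, SE 0.169, adjusted p = 0.0071) were added. Of the polymerase II genes, 9 of 11 were then called. The comparisons share the induced and the non-induced miR-22 arrays. Both induced arrays lay above all 4 controls in 13 members, where 19.4% of rows did, and below all 4 in 3 members (RNY1, RNU6-501P and RN7SL737P), where 18.3% did. Without non-induced replicate 1, which leaves 3 controls of prefix R587, 14 members were higher and 3 lower, where 10.5% and 12% of all rows were called, so the share of members lower was near that of all rows. RNU4-1 (1.71, SE 0.195, adjusted p = 0.0023) and RNU12 (0.60, SE 0.123, adjusted p = 0.016) were then called higher, and RNY1 (-1.58, adjusted p = 0.042) and RN7SL737P (-0.44, adjusted p = 0.029) lower.

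NpBI-206AS cells received the same doxycycline, with 1 array per condition and no replicate check. No member differed 2-fold there, where 0.234% of rows were at least 2-fold higher and 0.438% at least 2-fold lower on the induced array. The polymerase II genes had a median difference of -0.30, with 3 of 11 higher on the induced array. RNU5F-1 (-0.80) and RNU4-1 (-0.69) had the largest differences downward among them and RNU5E-1 (0.30) the largest upward. Among polymerase III genes 5 of 7 were higher on the induced array, with a median difference of 0.05. RMRP was 0.48, RNU6ATAC 0.28 and RPPH1 0.24 higher there, and RNY1 0.76 lower. Of the 6 polymerase II genes outside the dimmest 50 percent of rows, 3 were higher and 3 lower, with a median of -0.0475 against -0.30 over all 11. These 6 were kept by a mean that includes the induced miR-22 arrays, and the difference between the medians was not tested.

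Whether the lines responded differently was tested in the same limma model. It called 0 of 23 members, and 0% of all rows; 13 members and 2957 of 33297 rows had an unadjusted p under 0.05. The difference was positive for all 11 polymerase II genes, and for 15811 of all 33297 rows. These genes were read on the same arrays, so their signs are not separate tests. It was 3.34 for RNU4-2 (SE 0.459, adjusted p = 0.26), 2.52 for RNU4ATAC (SE 0.312, adjusted p = 0.21) and 2.29 for RPPH1 (SE 0.458, adjusted p = 0.31). For RMRP it was 1.01 (SE 0.286, adjusted p = 0.43), less than its 1.50 in miR-22 cells alone.

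The control arrays also differed among themselves. Between the non-induced miR-22 replicates, which have different prefixes, 2 members were at least 2-fold apart, as were 2.67% of rows: RNU4-1 and RNU11, both higher in replicate 1, by 1.45 and 1.35. RPPH1, RNU5E-1 and RNU12 were higher there by 0.71, 0.66 and 0.64. RNU5D-1 and RNY1 went the other way by 0.51 and 0.52. Non-induced NpBI-206AS cells and non-induced miR-22 replicate 2, which share the prefix R587, were less than 2-fold apart in every member, where 0.856% of rows were at least 2-fold apart, with RNU5F-1 (0.77), RNY1 (0.76) and RNU4-2 (0.71) higher in NpBI-206AS cells.

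Within the polymerase III genes the 2 that rose are the longest. RPPH1 spans 341 nt and RMRP 270 nt in the NCBI gene table, while the other 5 span 88 to 126 nt. Across the 7 genes Spearman's rho between length and log2 difference was 0.41, and Pearson's r of 0.78 rests on those 2 genes. The 11 polymerase II genes span 102 to 188 nt, which overlaps the short polymerase III range, and had a rho of -0.29. RNU6ATAC (126 nt, 0.03) and RNU4ATAC (130 nt, 2.22) are of nearly equal length and differ in polymerase. RNU4-2 (145 nt, 2.84) and RNU12 (150 nt, 0.18) are also close in length, and polymerase II makes both. These pairs are examples and were not tested. All these genes share the same arrays, so the correlations are descriptions only. RNA length and polymerase were not tested against each other.

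**Figure D3:**
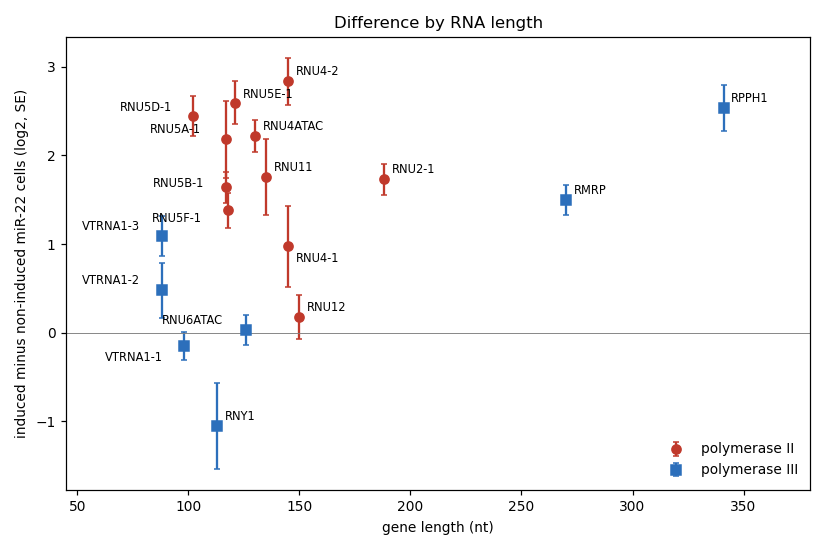
Log2 difference with SE, induced minus non-induced miR-22 cells (y axis), against gene length in nt (x axis) for the 18 genes by polymerase. RPPH1 and RMRP lie to the right at 341 and 270 nt, and RNU12 at 0.18 is the lowest polymerase II gene.

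Other RNAs without a poly(A) tail, or of small size, were read beside the members. Replication-dependent histone genes, whose mRNAs end in a stem-loop, rose in 12 of 57 members and fell in none, with a median of 0.70. Of all rows 1.59% rose and 2.01% fell. H4C14 and H4C15 had the same values on every array, so the 57 are not all separate measurements. Small nucleolar and Cajal body RNAs, most of them cut from introns, rose in 8 and fell in 7 of 192, with a median of -0.03. Relative to each gene's mean over the arrays, the polymerase II snRNAs stood at a median of 1.26 and 1.34 on the induced miR-22 arrays and between -0.69 and -0.47 on the other 4. Histone genes followed with 0.72 and 0.46 against -0.49 to -0.10, and the median of the nucleolar RNAs stayed within 0.06 of 0. That median covers members that went both ways: 4.17% rose and 3.65% fell, and 38% had an unadjusted p under 0.05, each above the share of all rows. SCARNA10 (2.27, adjusted p = 0.015), SNORD13P3 (2.21, adjusted p = 0.038) and SNORD13 (2.04, adjusted p = 0.019), chosen after their values were seen, rose as far as the snRNAs. By its symbol SNORD13P3 is a pseudogene, as is SNORD13P2, which fell (-1.17, adjusted p = 0.029). Whether their probes also read SNORD13 was not assessed. RNA quality and the recovery of short RNAs were not tested.

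**Figure D4:**
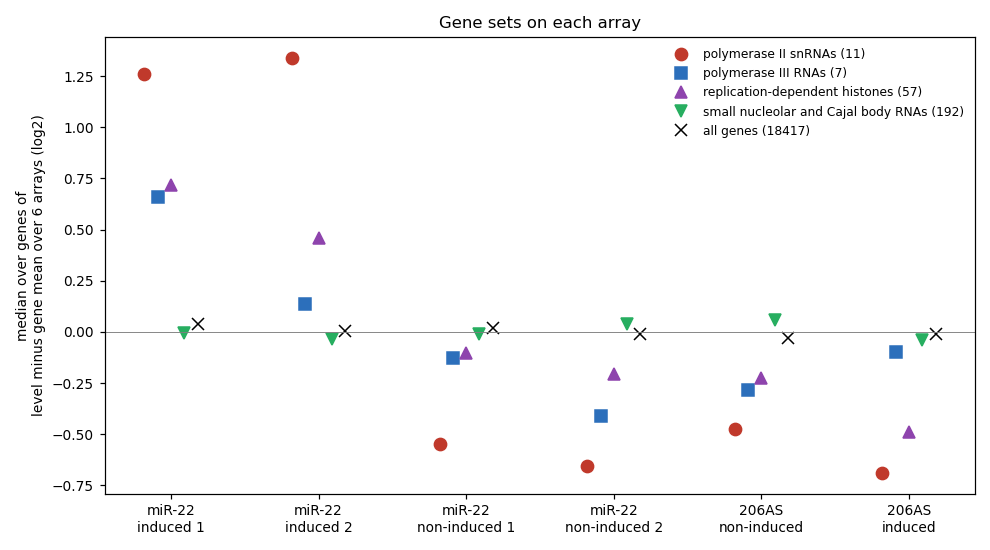
Median over the genes of a set of the log2 level minus the gene's mean over the 6 arrays (y axis), for each array (x axis), with 1 symbol per set and the number of genes in the legend. Polymerase II snRNAs and histone genes are raised on both induced miR-22 arrays, while the median of the 192 small nucleolar and Cajal body RNAs stays within 0.06 of 0 on every array.

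Of 53 measured genes for proteins that make or bind these RNAs 2 passed the same test (3.77%, against 3.6% of all rows). An unadjusted limma p under 0.05 was found for 32.1% of them, against 21.6% of all rows, a difference that was not tested. Of 7 measured snRNA promoter factors, 1 rose: SNAPC5, the small subunit of SNAPc, read 7.98 and 8.49 on the induced miR-22 arrays, 6.95 and 6.90 on the non-induced ones (log2 change 1.31, SE 0.21, adjusted p = 0.039), and 6.92 and 6.80 in NpBI-206AS cells. The other SNAPc subunits differed by between -0.32 (SNAPC1) and 0.52 (SNAPC2) and did not pass. Of 12 polymerase III subunits limma called 0, with 4 at an unadjusted p under 0.05. POLR3G, the subunit typical of undifferentiated cells, and POLR1D, shared with polymerase I, led with -0.71 and 0.67 (adjusted p = 0.12 and 0.069). Of 11 polymerase III initiation factors and the repressor MAF1 together, limma called 0, with 5 at an unadjusted p under 0.05. The largest differences were those of GTF3C3 (-0.83, adjusted p = 0.055) and BDP1 (-0.72, adjusted p = 0.16), both lower. The other 3 of the 5 were higher, BRF2 (0.59, adjusted p = 0.094) among them. Over the 11 genes the median was 0.08, with 7 positive.

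Proteins of ribonuclease P and MRP had a median of 0.44 over 9 genes, of which limma called 0 and 4 had an unadjusted p under 0.05; POP4 (0.94, adjusted p = 0.088) and RPP40 (0.80, adjusted p = 0.13) led. Of 6 signal recognition particle proteins limma called 0, with 1 at an unadjusted p under 0.05, and SRP14 (0.74, adjusted p = 0.18) and SRP72 (-0.37, adjusted p = 0.24) led. Among 8 partners of 7SK, Y, vault and La RNAs, HEXIM1 fell. HEXIM1, which with 7SK RNA inhibits the elongation factor P-TEFb, read 7.66 and 7.69 on the induced miR-22 arrays, 8.69 and 8.81 on the non-induced ones, and 8.79 and 8.86 in NpBI-206AS cells (log2 change -1.07, SE 0.149, adjusted p = 0.03). RO60, the partner of RNY1, differed by 0.49 (adjusted p = 0.25).

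Genes next to the members were read by the same test. For each of the 18 genes the nearest gene on either side with its own row was read, a choice made after the members' values were known. Of 27 such neighbours 1 rose (3.7%) and 3 fell (11.1%), where 1.59% and 2.01% of all rows did, with a median of 0.10. With so few calls these shares are imprecise, and the difference from all rows was not tested. PARP2, which lies beside RPPH1, differed by 0.13 (SE 0.195, adjusted p = 0.78). CCNB1IP1, read on the other side of RPPH1, differed by 0.60 (SE 0.147, adjusted p = 0.089). SIRT4, which comes between RNU4-2 and RNU4-1 in the order of start coordinates, differed by 0.43 (adjusted p = 0.19). PXN, on the other side of RNU4-2, fell by 1.16 (SE 0.202, adjusted p = 0.046). KIF2C, beside RNU5D-1, fell by 0.89 (adjusted p = 0.046), ZMAT2, beside the vault RNA genes, by 0.88 (adjusted p = 0.042), and PARP16, beside RNU5A-1, rose by 0.89 (adjusted p = 0.044).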

How the data were processed

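The authors deposited 1 table of log2 expression values. The submitters' processing notes name RMA and Partek; for their versions, settings and the genome build, the entry is "not given in the sources used here". RMA usually includes quantile normalization, which hides any shift common to all transcripts. Labelling used a whole-transcript kit on total RNA, per the labels' protocols. Rows were named through the platform annotation, with symbols updated by gene ID from the NCBI table of assembly GRCh38.p14: 19460 of 33297 rows had 1 symbol, 1754 several and 12083 none. All 23 members matched by gene ID.

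Groups came from sample titles. limma 3.58.1 in R 4.3.3 was fitted to all rows of the 6 arrays with a mean per group (first comparison and response difference), or with induced miR-22 arrays against the other 4. All tests were two-sided and p-values were adjusted across every row (Benjamini-Hochberg). The single NpBI-206AS arrays add no residual degrees of freedom to the first comparison. The code was tested on simulated data. Members not pseudogenes were named in full; partner genes were named where they passed, otherwise the 2 largest per list. The members, lists and naming rule were chosen with earlier results of these data known. Alternatives were other normalizations, a filter on dim rows, averaged rows, an intensity trend, a replicate block and leaving out arrays.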

Additional observations from a re-analysis of the deposited data

How the results depend on the processing

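Median centring, repeated quantile normalization, cyclic loess and an intensity trend left the numbers of called members in all 3 tests within 1.5 times those reported. Median centring moved the polymerase II median from 1.76 to 1.83. Only 11 members lie outside the dimmest 50 percent of rows. Without those rows the medians of all members and of polymerase III genes were both 1.5, the second comparison called 7 higher and 2 lower (13.3% and 15.2% of the rows kept), the median difference between the responses was 1.64 (1.24 with all rows), and the polymerase II median in NpBI-206AS cells was -0.0475. With the rows of a gene averaged, the first comparison called 0 members lower.

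With 1 miR-22 array left out, the first comparison called 0 members higher and 0 lower, and 0 of all rows, in each of 4 fits. The medians ran from 1.02 to 1.46 for all members, 1.66 to 2.12 for polymerase II and 0.127 to 0.828 for polymerase III. The second comparison called 8 to 14 members higher and 1 to 3 lower (1.12% to 10.5% and 1.57% to 12% of rows), and the median difference between the responses ran from 0.949 to 1.53. Signs turned for members near 0: RNU105B (-0.0018) to 0.0692 with median centring, 0.0758 with quantile normalization, 0.0417 with cyclic loess, and between -0.143 and 0.14 on leaving out an array. Leaving out an array gave -0.159 to 0.228 for RN7SL832P, -0.142 to 0.50 for RNU12 and -0.115 to 0.18 for RNU6ATAC. The causes were not tested.

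The replicate numbers are shared only as labels. Deviations of same-numbered miR-22 arrays correlated at 0.196 over all rows. With the replicate number as a block on the 4 miR-22 arrays, the first comparison called 12 members higher and 1 lower, and 1327 rows higher and 1628 lower in place of 531 and 669.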
